A study of Mus musculus with 9 samples.

Results

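Expression of 7 lymphatic endothelial genes (Prox1, Lyve1, Flt4, Vegfc, Ccbe1, Reln and Mmrn1) was followed in whole mouse lungs at E18.5, shortly before birth. The 7 genes were taken by exact symbol from a table of 27207 genes, and each symbol matched 1 entry. RNA was sequenced from 9 lungs in 3 groups of 3. Wild type lungs were compared with lungs that carried Dnmt1-D/D together with Tbx4-rtTA and Tet-O-Cre, called Dnmt1 conditional knockout (CKO) here. Both CKO groups carried the same 3 alleles and were separated by appearance. Weak CKO lungs were hypoplastic without haemorrhage, whereas strong CKO lungs were hypoplastic and had haemorrhages throughout the parenchyma. The Tbx4 driver, used to reach lung mesenchyme, brings Cre to some lung cells and not to all. The sources used here give neither the exons that the deleted allele lacks nor the time of Cre induction. Libraries are named by their titles, in which MUT_W marks the weak CKO group and MUT_S the strong one.

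Lymphatic vessels arise when endothelial cells of embryonic veins switch on Prox1, the transcription factor that sets and keeps lymphatic identity. The growth factor VEGFC, made by surrounding mesenchyme and arterial walls, is released in active form by a protease that CCBE1 recruits, and it acts on the receptor VEGFR3, the product of Flt4, on lymphatic endothelium. Lyve1 encodes a hyaluronan receptor of lymphatic endothelium that some macrophages also carry, Reln a secreted glycoprotein of collecting lymphatics, and Mmrn1 a matrix protein of endothelium and platelets. In late gestation the lung's lymphatic vessels clear fluid before the first breath.

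Dnmt1, the gene targeted in the mutants, copies DNA methylation onto newly made strands. Its level was 79.1 to 121 CPM (counts scaled to library size with TMM factors, the usual unit for such data) in wild type, 59.1 to 80.6 CPM in weak CKO and 62.0 to 78.7 CPM in strong CKO. The highest weak CKO library thus lay above the lowest wild type library, and all strong CKO libraries lay below it, the highest only just. Means were 70.2% of wild type in weak CKO and 69.2% in strong CKO. By edgeR's quasi-likelihood test the log2 change was −0.51 (adjusted p = 0.0727) in weak CKO and −0.53 (adjusted p = 0.0433) in strong CKO. Library totals ran from 25607595 to 33156732 counts. Lung markers were abundant in every library, among them Sftpc (5747 to 10328 CPM) and Nkx2-1 (281 to 363 CPM). In whole lung RNA, fewer cells of a type and less RNA per cell cannot be told apart. The labels name no litters, and p-values therefore measure only how these 9 samples spread, which may in part be technical.

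In wild type lungs the members spanned a wide range of levels, compared here as CPM per kilobase of merged exons. Lyve1 stood highest at 72.8 CPM per kb (67.3 to 78.8 over 3 libraries). Flt4 at 7.45 CPM per kb (7.22 to 7.89) and Vegfc at 6.44 (5.38 to 7.64) came next, and their ranges overlapped. Mmrn1 followed at 4.86 CPM per kb (3.50 to 5.66), overlapping Vegfc and also Ccbe1, which had 3.39 (3.24 to 3.61). Prox1 had 1.02 CPM per kb (0.757 to 1.31) and Reln 0.402 (0.281 to 0.510), both apart from their neighbours. The transcription factor was therefore among the scarcest members and rested on 204 to 323 counts per library, where counting error of the lowest library is 7.0%. Lyve1, Flt4, Vegfc, Mmrn1 and Reln kept these positions in the order of group means in both CKO groups, with Reln lowest throughout. Ccbe1 fell from 3.39 CPM per kb to 1.52 in weak CKO (1.44 to 1.65) and 1.14 in strong CKO (1.07 to 1.198), where its range overlapped that of Prox1 at 1.22 (1.15 to 1.28).

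**Figure D1:**
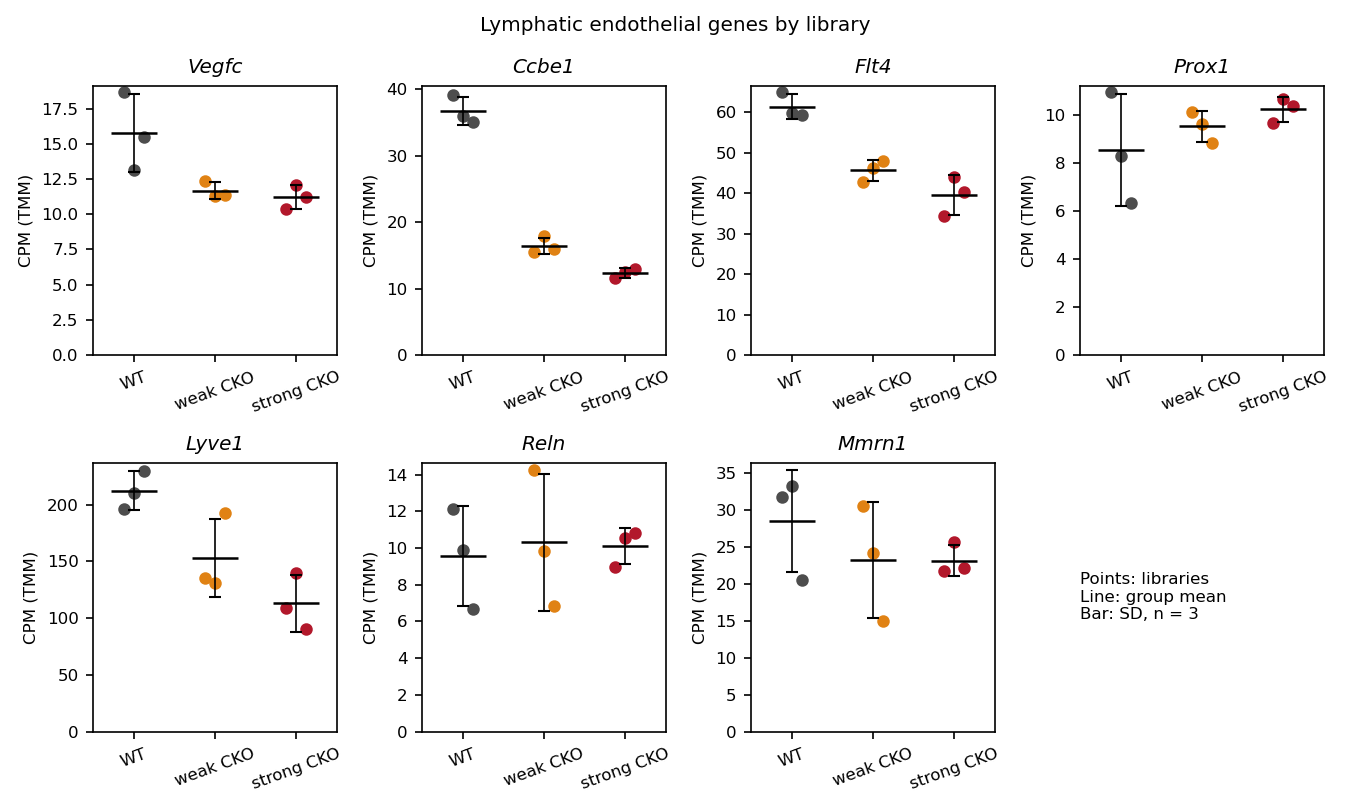
CPM (vertical axes, linear from 0) of the 7 genes in each of 9 libraries (points), by group, with the group mean (line) and SD (bar, n = 3). Ccbe1, Flt4, Vegfc and Lyve1 have all CKO libraries below all wild type libraries, whereas Prox1, Reln and Mmrn1 overlap between groups.

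The members were first compared between CKO and wild type lungs. All 7 passed the filter on low counts, as did 19374 genes in all, and were tested with edgeR's quasi-likelihood test with Benjamini-Hochberg adjustment over those genes. In weak CKO 0 members rose and 3 fell at an adjusted p under 0.05 (Flt4, Vegfc and Ccbe1), in a comparison where 9.09% of all tested genes rose and 5.38% fell. In strong CKO 0 rose and 4 fell (the same 3 and Lyve1), where 14.6% of tested genes rose and 11.0% fell. The members' median log2 change was −0.43 in weak CKO and −0.49 in strong CKO, beside −0.01 and −0.00 over all tested genes. In both comparisons 4 of 7 members did not overlap between the groups, all 4 with CKO below wild type, and 31.4% of tested genes did not overlap in either direction in weak CKO and 41.7% in strong CKO. At an unadjusted p under 0.05 edgeR gave 0 rises and 4 falls in each comparison. DESeq2 called 0 members up and 4 down in each, and limma on log2(RPKM + 1) called 0 up in each, 2 down in weak CKO and 4 down in strong CKO. Without MUT_W_265_2 or without MUT_W_268_3, 1 member (Ccbe1) was called in weak CKO. With 3 libraries against 3 the smallest p of an exact two-sided permutation test is 0.1, and none was run. Both comparisons share the wild type libraries, and their values are given side by side for that reason.

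Ccbe1, the secreted factor that brings the protease to VEGFC, had the largest change of the 7. It was measured at 39.1, 35.9 and 35.1 CPM in wild type (WT_265_1, WT_268_1 and WT_549_2), 15.6, 17.8 and 15.9 CPM in weak CKO (MUT_W_265_2, MUT_W_268_3 and MUT_W_549_3), and 11.6, 12.5 and 13.0 CPM in strong CKO (MUT_S_265_5, MUT_S_268_4 and MUT_S_860_3). All CKO libraries lay far below all wild type libraries, and every strong CKO library lay below every weak CKO library. The group means were 36.7 ± 2.10 CPM in wild type, 16.4 ± 1.23 in weak CKO and 12.3 ± 0.714 in strong CKO (SD, n = 3). These were 44.8% and 33.6% of the wild type level. By edgeR's quasi-likelihood test the log2 change was −1.16 ± 0.09 (SE, adjusted p = 2e-05) in weak CKO and −1.57 ± 0.09 (adjusted p = 3.29e-06) in strong CKO. A lower value than that of Ccbe1 was found for 1.17% of tested genes in weak CKO and 0.939% in strong CKO. Ccbe1 was called lower in all 20 alternative analyses of each comparison, between −1.22 and −0.73 in weak CKO and between −1.64 and −0.93 in strong CKO.

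The Ccbe1 gene (ENSMUSG00000046318) lies on chromosome 18 at 66045302 to 66302741 of GRCm38, minus strand, per GENCODE M21. It shares 320 exon bases with the antisense gene Gm15958, and whether the counting used strand was not given. Gm15958 had 44, 30 and 35 counts in wild type, 12, 11 and 14 in weak CKO and 6, 3 and 8 in strong CKO. The antisense counts were thus lower in every CKO library too, at a small share of the Ccbe1 counts. Exon bases of Prox1 (133, with Prox1os) and of Reln (246, with Gm10475) also overlap genes on the opposite strand, while those of Flt4, Lyve1, Vegfc and Mmrn1 overlap none.

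Vegfc (ENSMUSG00000031520, chromosome 8, 54077606 to 54187096, plus strand), the main growth factor of lymphatic endothelium, changed less than its cofactor. Its levels were 18.7, 13.2 and 15.5 CPM in wild type, 12.4, 11.3 and 11.4 CPM in weak CKO and 10.4, 12.1 and 11.2 CPM in strong CKO, with libraries in the order given for Ccbe1. All 6 CKO libraries lay below the lowest wild type library, by a narrow margin in weak CKO. Mean levels were 74.1% and 71.1% of the wild type mean of 15.8 ± 2.78 CPM (SD, n = 3). The log2 change was −0.43 ± 0.13 in weak CKO (SE; adjusted p = 0.0492, edgeR) and −0.49 ± 0.13 in strong CKO (adjusted p = 0.0193), and turned to 0.01 and 0.17 when the libraries were scaled to endothelial genes (described further on). The weak CKO call sat at the threshold and held in 6 of 20 alternative analyses. In strong CKO it held in 16 of 20 and was lost without WT_265_1 (−0.35, adjusted p = 0.0546), without MUT_S_265_5 (−0.43, adjusted p = 0.079) and without MUT_S_860_3 (−0.48, adjusted p = 0.0578).

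Flt4 (ENSMUSG00000020357, chromosome 11, 49609263 to 49652739, plus strand) encodes the receptor that VEGFC binds. Wild type libraries had 64.9, 59.7 and 59.4 CPM, weak CKO libraries 42.8, 46.1 and 47.9 CPM, and strong CKO libraries 34.4, 44.0 and 40.3 CPM. The CKO values lay well below wild type, and the strong and weak groups overlapped. Mean levels were 74.4% and 64.5% of the wild type mean of 61.3 ± 3.11 CPM (SD, n = 3). The log2 change was −0.43 ± 0.09 in weak CKO (SE; adjusted p = 0.0132, edgeR) and −0.63 ± 0.09 in strong CKO (adjusted p = 0.00101), and was near 0 in both, at 0.01 in strong CKO, when scaled to endothelial genes. The weak CKO call was also lost without MUT_W_265_2 (−0.38, adjusted p = 0.0588) or MUT_W_268_3 (−0.43, adjusted p = 0.0504).

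Lyve1 (ENSMUSG00000030787, chromosome 7, 110850607 to 110863239, minus strand), the hyaluronan receptor, was the most abundant member. It had 196.5, 210.7 and 230.1 CPM in wild type, 136, 131 and 192 CPM in weak CKO and 109, 140 and 90.3 CPM in strong CKO. Each CKO library lay below the lowest wild type library, MUT_W_549_3 only just, and the variation within both CKO groups was wide (coefficient of variation 22.4% and 22.3%, against 7.94% in wild type). Mean levels were 72.0% and 53.2% of the wild type mean of 212 ± 16.9 CPM (SD, n = 3). In weak CKO the log2 change of −0.47 ± 0.18 (SE) did not pass (adjusted p = 0.124, edgeR), with a 95% interval of −0.89 to −0.06. DESeq2 gave −0.48 with an adjusted p of 0.0378, and without MUT_W_549_3 the change was −0.67 (adjusted p = 0.0273, edgeR). In strong CKO Lyve1 fell by 0.91 ± 0.18 on the log2 scale (adjusted p = 0.00725, edgeR), a call lost when scaled to endothelial genes (−0.27, adjusted p = 0.124).

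Prox1 (ENSMUSG00000010175, chromosome 1, 190118035 to 190170714, minus strand), the transcription factor, had means slightly above wild type in both CKO groups and passed in neither comparison. Its levels were 11.0, 8.30 and 6.35 CPM in wild type, 10.1, 9.63 and 8.87 CPM in weak CKO and 9.68, 10.7 and 10.4 CPM in strong CKO. The wild type libraries spread more widely than either CKO group and enclosed all of their values. Means were 8.55 ± 2.33, 9.55 ± 0.645 and 10.3 ± 0.526 CPM (SD, n = 3). The log2 change was 0.16 ± 0.17 in weak CKO (SE; adjusted p = 0.593, edgeR) with a 95% interval of −0.22 to 0.55. In strong CKO it was 0.27 ± 0.17 (adjusted p = 0.293) with an interval of −0.12 to 0.65. These intervals leave out a fall as large as that of Flt4 in either comparison. Without WT_265_1, the highest wild type library, the change in strong CKO was 0.49 (adjusted p = 0.0341), and without WT_549_2, the lowest, the change in weak CKO was −0.01 (adjusted p = 0.964).

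Reln (ENSMUSG00000042453, chromosome 5, 21884454 to 22344702, minus strand) had 12.1, 9.88 and 6.66 CPM in wild type, 14.3, 9.81 and 6.86 CPM in weak CKO and 8.96, 10.5 and 10.8 CPM in strong CKO. The groups overlapped almost fully, and the log2 changes of 0.11 ± 0.27 (SE; adjusted p = 0.833, edgeR) and 0.08 ± 0.27 (adjusted p = 0.854) did not pass. The 95% intervals were wide, from −0.50 to 0.72 and from −0.53 to 0.70. Mmrn1 (ENSMUSG00000054641, chromosome 6, 60924976 to 60989378, plus strand), the matrix protein gene, had 31.8, 33.2 and 20.5 CPM in wild type, 30.6, 24.2 and 15.01 CPM in weak CKO and 21.7, 25.7 and 22.1 CPM in strong CKO. Its log2 changes of −0.29 ± 0.26 (SE; adjusted p = 0.507, edgeR) and −0.30 ± 0.26 (adjusted p = 0.435) did not pass, with 95% intervals of −0.88 to 0.29 and −0.89 to 0.29. In both genes the spread between libraries of 1 group was as large as any difference between groups. WT_549_2 was the lowest wild type library and MUT_W_549_3 the lowest weak CKO library for Prox1, Reln and Mmrn1 alike.

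**Figure D2:**
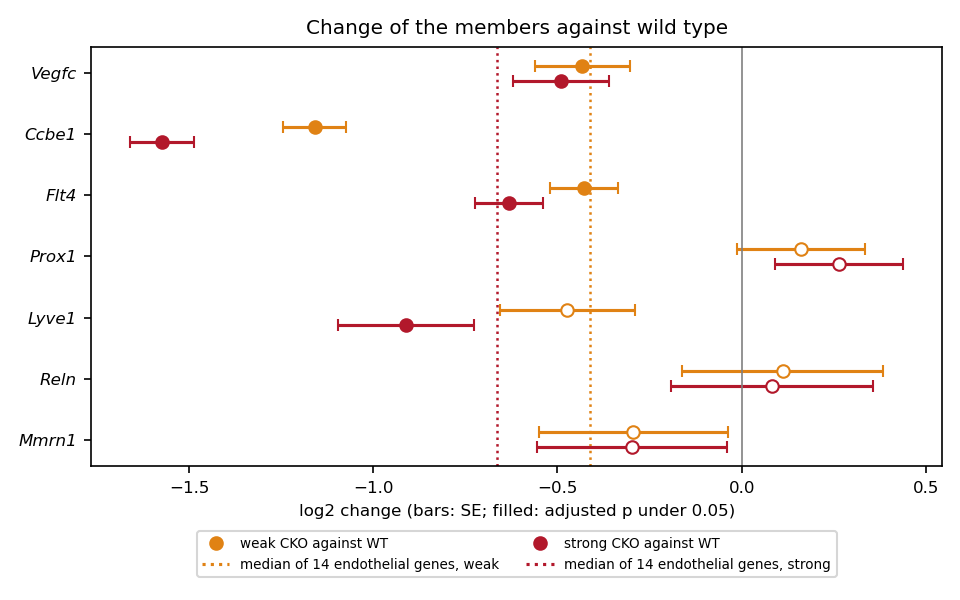
Log2 change against wild type (horizontal axis) of the 7 genes in weak and strong CKO, with SE bars from edgeR and filled points where the adjusted p was under 0.05. Dotted lines mark the median change of 14 pan-endothelial genes (−0.41 and −0.66); Ccbe1 lies below both lines, whereas Prox1 and Reln lie above 0 and, scaled to those endothelial genes, Flt4 and Vegfc come to lie near 0.

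The 2 CKO phenotypes were then compared with each other. By edgeR's quasi-likelihood test 0 members rose and 0 fell in strong against weak CKO, and 0 and 0.00516% of all tested genes did. At an unadjusted p under 0.05, 0 members rose and 2 fell, while DESeq2 and limma on log2(RPKM + 1) called 0. The 2 were Ccbe1 (−0.41 ± 0.09, SE, unadjusted p = 0.000687, adjusted p = 0.873, edgeR) and Lyve1 (−0.44 ± 0.18, unadjusted p = 0.0415, adjusted p = 0.873, edgeR). Ccbe1 was the 1 member of 7 whose strong CKO libraries did not overlap the weak CKO libraries, lying below them, against 13.4% of tested genes with no overlap in either direction, and its 95% interval was −0.61 to −0.22. Flt4 differed by −0.21 ± 0.09 (interval −0.41 to 0.00), which became 0.01 when scaled to endothelial genes. For the remaining 4 members the estimates lay between −0.06 and 0.10. No member therefore passed the test between lungs with and without haemorrhage.

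Other endothelial genes were lower in the CKO lungs as well. Of 14 pan-endothelial markers (among them Pecam1, Cdh5, Cldn5, Tie1 and Sox17), 0 rose and 9 fell in weak CKO, and 0 rose and 14 fell in strong CKO, with medians of −0.41 and −0.66 (edgeR). Over all tested genes 9.09% rose and 5.38% fell in weak CKO, and 14.6% rose and 11.0% fell in strong CKO. DESeq2 called 0 up and 12 and 14 down, and at an unadjusted p under 0.05 there were 0 up and 14 down in both. The weak CKO count was 14 without WT_268_1 but 2 without WT_549_2, 1 without MUT_W_265_2 and 2 without MUT_W_268_3, whereas the strong CKO count was 14 whichever library was left out. Their summed level was 2679 to 3316 CPM in wild type, 2256 to 2444 CPM in weak CKO and 1739 to 2132 CPM in strong CKO, with no overlap between the 3 groups. Sox17, a transcription factor of endothelium, fell by 0.65 in weak and 0.90 in strong CKO, and Tie1, an orphan receptor of endothelium, fell by 0.51 and 0.79 (log2, all with an adjusted p under 0.05, edgeR).

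To set the members against these endothelial genes, each member was expressed per 1000 counts of the 14 markers. Prox1 had 3.31, 3.10 and 1.96 per 1000 in wild type, 4.499, 4.25 and 3.63 in weak CKO and 5.56, 5.02 and 5.29 in strong CKO. On this scale the 3 groups did not overlap, and their means were 2.79 ± 0.729, 4.13 ± 0.448 and 5.29 ± 0.272 (SD, n = 3). The summed markers did not overlap between the 3 groups either, so a gene of steady level in the library tends to step up on this scale. How many of all genes do so is not given. Ccbe1 remained lower, at 11.8, 13.4 and 10.8 in wild type, 6.90, 7.87 and 6.501 in weak CKO and 6.65, 5.84 and 6.60 in strong CKO. All its CKO values lay below all wild type values, and the 2 CKO groups overlapped. Flt4 had means of 20.1 ± 2.03, 19.6 ± 0.677 and 20.3 ± 0.470 per 1000 and Vegfc 5.11 ± 0.466, 5.05 ± 0.415 and 5.78 ± 0.152, so that neither fell on this scale. Lyve1 had means of 69.6 ± 9.75, 65.5 ± 11.5 and 58.0 ± 10.6, with overlap between all groups. Reln had means of 3.13 ± 0.934, 4.49 ± 1.76 and 5.19 ± 0.280, with all strong CKO libraries above all wild type libraries, and Mmrn1 had 9.43 ± 3.03, 10.1 ± 3.74 and 11.9 ± 0.626.

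The same scaling was carried through edgeR's test over all genes, where it moved the median log2 change of all tested genes to 0.42 in weak CKO and 0.65 in strong CKO. In that analysis Prox1 was higher by 0.59 ± 0.21 (SE, adjusted p = 0.025) in weak CKO and 0.91 ± 0.21 (adjusted p = 0.000602) in strong CKO. Ccbe1 was lower by edgeR, at −0.73 ± 0.15 (adjusted p = 0.000922) and −0.93 ± 0.15 (adjusted p = 3.06e-05). Reln passed by edgeR in strong CKO alone (0.72, adjusted p = 0.0494, against 0.54 and adjusted p = 0.149 in weak CKO), without a test of that difference, and Flt4, Vegfc, Lyve1 and Mmrn1 passed in neither comparison. Prox1 was therefore higher relative to the 14 endothelial markers but not shown to be higher relative to the whole library, and the scaling sets which of these is read. The markers were themselves lower in CKO, so a gene of steady level in the library rises on this scaling. The Prox1 values of 0.59 and 0.91 stand beside medians of 0.42 and 0.65 over all tested genes, and such a rise is not particular to Prox1. Counts of all genes called on this scaling are given further on.

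**Figure D3:**
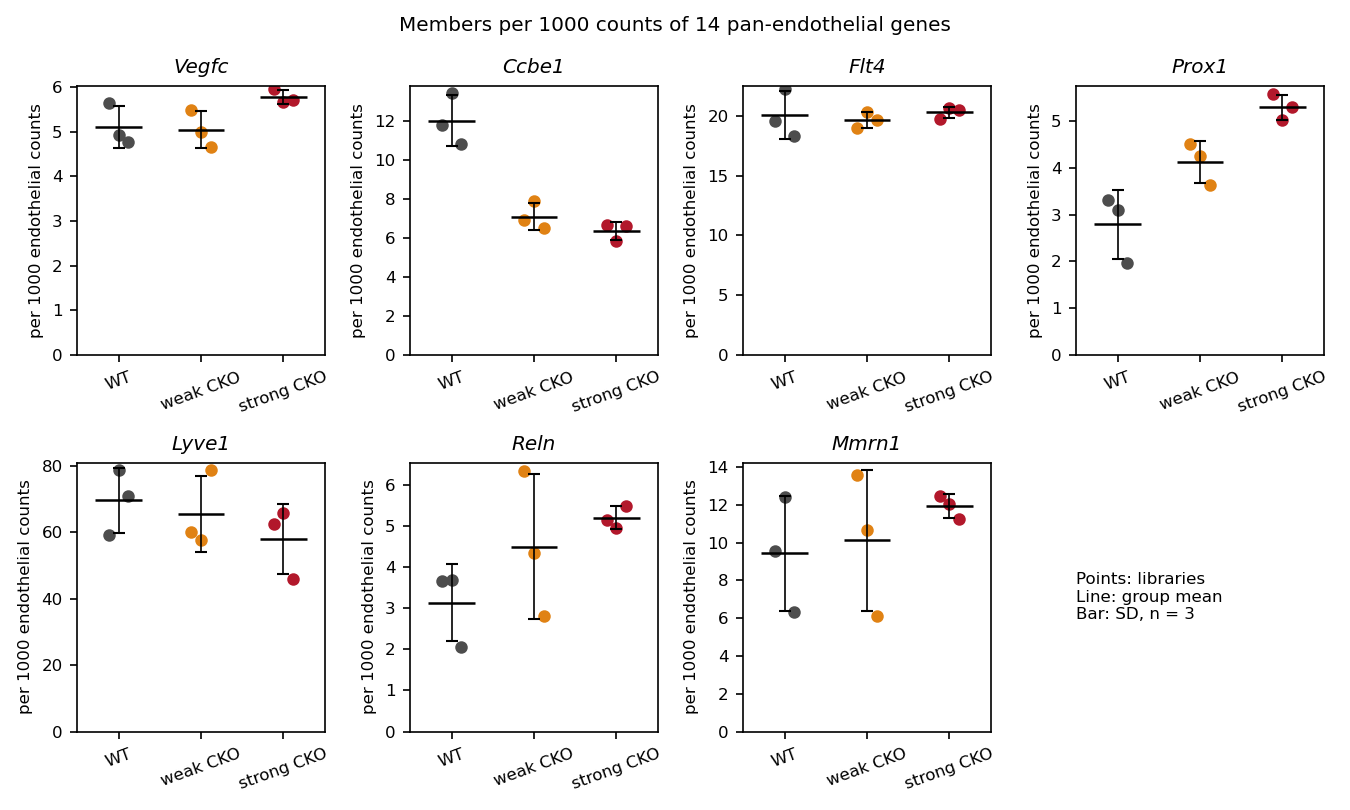
Counts of each of the 7 genes per 1000 counts of 14 pan-endothelial genes (vertical axes, linear from 0) in 9 libraries (points), with group mean (line) and SD (bar, n = 3). Prox1 steps up from wild type to weak and strong CKO without overlap, Ccbe1 is lower in all CKO libraries, and Flt4 stays near 20 per 1000. The 14 genes were themselves lower in CKO, so a gene of steady level in the library tends to step up here. Relative to library size, by contrast, Prox1 overlaps between groups and Flt4 is lower in CKO.

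Ratios between members show the divergence most directly, because they do not depend on library scaling. There were 4.47 ± 0.995 Ccbe1 counts per Prox1 count in wild type, 1.73 ± 0.169 in weak CKO and 1.202 ± 0.0426 in strong CKO (SD, n = 3). Lyve1 counts per Prox1 count had means of 26.5 ± 9.23, 16.2 ± 4.75 and 11.0 ± 2.21, and wild type (17.9 to 36.2) overlapped weak CKO (13.4 to 21.7). Reln counts per Prox1 count, in contrast, had means of 1.11 ± 0.0716, 1.07 ± 0.319 and 0.983 ± 0.0563. A ratio shows unequal change of 2 genes and not which of them moved.

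Likeness of profile was measured as the root mean square difference between log2 CPM values over the 9 libraries, each gene centred on its own mean, so that a small value means a like course. Among the members Flt4 and Vegfc were closest (0.14), followed by Prox1 with Reln and Reln with Mmrn1 (both 0.22) and Lyve1 with Flt4 (0.24). Prox1 and Ccbe1 were farthest apart (0.80). Over all genes of at least moderate level, the nearest to Flt4 were Tmem204 (0.048), Fermt2 (0.051) and Afap1l1 (0.051). Ccbe1 was matched most closely by Pla2r1 (0.11), Tchh (0.12) and Il16 (0.14), with log2 changes of −0.98, −1.16 and −1.16 in weak CKO and −1.42, −1.39 and −1.48 in strong CKO. Vegfc lay nearest to Inpp5k (0.064), Cyth3 (0.068) and Cds2 (0.071), and Lyve1 to Gstm7 (0.11), Car14 (0.13) and Grb10 (0.13). Prox1 lay nearest to Slc6a6 (0.099), Slc16a10 (0.10) and Creg1 (0.10), Reln to Tlr4, Exph5 and Slc6a9 (each 0.16), and Mmrn1 to Exph5 (0.13), Vwf (0.16) and Crb1 (0.16). Vwf encodes von Willebrand factor of endothelium and platelets, where Mmrn1 is also made. Such likeness over 9 libraries describes these samples, which share their depth and makeup.

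The wider lymphatic pathway was read from lists of genes by role. Of 54 tested pathway genes that are not among the 7, 7 rose and 12 fell in weak CKO, and 8 rose and 27 fell in strong CKO (adjusted p under 0.05, edgeR). Over all tested genes 9.09% rose and 5.38% fell in weak CKO, and 14.6% rose and 11.0% fell in strong CKO. The share of pathway rises in strong CKO was thus near that of all genes. These shares also apply beside the counts by role and by cell type below. Scaling to endothelial genes raised the median of all tested genes, as given above, and turned the pathway counts with it (16 and 2 in weak CKO, 29 and 5 in strong CKO), which says nothing particular to the pathway. The weak CKO counts of 7 and 12 also became 3 and 7 without WT_549_2, 4 and 4 without MUT_W_265_2, and 5 falls without MUT_W_268_3. In strong CKO they ran from 6 to 8 and from 19 to 27 over the libraries left out. Strong against weak CKO gave 0 calls in either direction by edgeR, DESeq2 and limma on log2(RPKM + 1), and 2 higher and 8 lower genes at an unadjusted p under 0.05.

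Among 6 growth factor and processing genes other than Vegfc and Ccbe1, 1 rose and 3 fell in both comparisons. Svep1, a large matrix protein needed for lymphatic vessel remodelling, had 225.5, 279.9 and 212.0 CPM in wild type, 129, 126 and 139 CPM in weak CKO and 104, 116 and 120 CPM in strong CKO. All CKO libraries lay below all wild type libraries, and the log2 changes were −0.87 (adjusted p = 0.000458, edgeR) and −1.07 (adjusted p = 7.91e-05). Vegfd, the second ligand of the Flt4 receptor, fell by 0.71 and 0.91 (adjusted p = 0.00311 and 0.000474, edgeR), from a mean of 100.2 CPM to 61.1 and 53.3 CPM. Adamts3, the protease that CCBE1 recruits to VEGFC, fell by 0.85 and 1.07 (adjusted p = 0.0452 and 0.0112, edgeR), from 5.54 CPM to 3.07 and 2.64 CPM. The weak CKO call of Adamts3 held in 10 of 19 alternatives that kept library scaling. Emilin1, a matrix protein of lymphatic anchoring filaments, rose by 0.23 and 0.19 (adjusted p = 0.0226 and 0.0289, edgeR). Relative to library size both ligands of the receptor, the protease and its cofactor were lower in both CKO groups, and on endothelial scaling Vegfc turned. On that scaling Vegfd (−0.31 and −0.28, adjusted p = 0.0913 and 0.1, edgeR) and Adamts3 (−0.46 and −0.46, adjusted p = 0.142 and 0.118) lost their calls, and Ccbe1 and Svep1 kept them.

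Among 10 receptors and co-receptors other than Flt4, 0 rose in either comparison, 3 fell in weak CKO and 8 fell in strong CKO, with medians of −0.33 and −0.57 (edgeR). DESeq2 gave 0 rises and 4 and 9 falls, and at an unadjusted p under 0.05 there were 0 rises and 6 and 9 falls. Over the libraries left out the weak CKO falls ran from 0 (without MUT_W_265_2) to 5 (without WT_268_1). Acvrl1, the receptor for circulating BMP ligands, was lower by 0.55 and 0.93 (adjusted p = 0.0357 and 0.00205, edgeR), and Ramp2, the partner of the adrenomedullin receptor, by 0.51 and 0.83 (adjusted p = 0.0377 and 0.00256). Tek, the angiopoietin receptor, was measured at −0.41 (adjusted p = 0.0645, edgeR) in weak CKO and fell by 0.69 (adjusted p = 0.00429) in strong CKO, and turned to 0.02 in weak CKO when scaled to endothelial genes. Tie1 and Ramp2 are also among the 14 pan-endothelial markers. Kdr and Nrp2, a second VEGF receptor and a co-receptor for VEGFC, fell in strong CKO by 0.44 and 0.43 (adjusted p = 0.00833 and 0.00744, edgeR).

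The 10 listed transcription factors other than Prox1 divided. There were 4 rises and 3 falls in weak CKO, and 4 rises and 5 falls in strong CKO. Maf is counted with the surface and secreted products below. The weak CKO falls came to 0 without WT_549_2, MUT_W_265_2 or MUT_W_268_3, and the rises to 1 without MUT_W_265_2 and to 2 without WT_268_1 or WT_549_2. The strong CKO falls came to 3 without MUT_S_265_5 or MUT_S_860_3. Foxc2, a factor of lymphatic valves and collecting vessels, had 0.593, 0.646 and 0.498 CPM in wild type, 1.77, 1.76 and 1.38 CPM in weak CKO and 2.75, 1.43 and 2.24 CPM in strong CKO. Every CKO library exceeded every wild type library at these low levels, and the log2 changes were 1.5 (adjusted p = 0.00725, edgeR) and 1.89 (adjusted p = 0.00118). Tbx1, a factor upstream of Flt4 in lymphatic growth, rose by 0.49 and 0.72 (adjusted p = 0.016 and 0.00128, edgeR). Gata2, a factor of lymphatic valves, fell by 0.47 and 0.61 (adjusted p = 0.0191 and 0.00342, edgeR), and turned to 0.05 in strong CKO when scaled to endothelial genes. Nr2f2 and Sox18, the factors that act before Prox1 in venous endothelium, were at −0.30 (adjusted p = 0.0208, edgeR) and −0.17 in weak CKO and −0.36 each in strong CKO (Sox18 adjusted p = 0.0226).

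Of 14 genes listed as surface and secreted products, other than Lyve1, Reln and Mmrn1, 2 rose and 1 fell in weak CKO. In strong CKO 3 rose and 7 fell. The 1 fall in weak CKO was Maf, a transcription factor placed in this list, so no surface or secreted product was called lower there. Over the libraries left out, the weak CKO falls ran from 1 to 3 (3 without WT_268_1) and the rises from 1 (without WT_549_2) to 2. Pdpn, a mucin-like protein of lymphatic endothelium and alveolar type 1 cells, had 192, 136 and 164 CPM in wild type, 126, 111 and 136 CPM in weak CKO and 96.3, 107 and 97.3 CPM in strong CKO. Its log2 change was −0.40 in weak CKO (adjusted p = 0.0527, edgeR), which turned to 0.03 when scaled to endothelial genes, and −0.71 in strong CKO (adjusted p = 0.00254). Maf, a transcription factor of lymphatic endothelium and other cells, fell by 0.65 and 0.91 (adjusted p = 0.0044 and 0.000417, edgeR). Cldn11, a tight junction gene of valves and glia, rose by 1.23 and 1.64 (adjusted p = 0.0138 and 0.00181, edgeR).

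Of 14 further ligands and guidance cues, 0 rose and 2 fell in weak CKO and 0 rose and 4 fell in strong CKO (edgeR). DESeq2 gave 0 rises and 2 and 7 falls, and at an unadjusted p under 0.05 there were 0 and 1 rises and 5 and 7 falls. The strong CKO falls came to 2 without MUT_S_265_5 or MUT_S_268_4. Adm, the peptide adrenomedullin that widens and strengthens lymphatic vessels, had 10.6, 6.07 and 8.09 CPM in wild type, 4.09, 3.13 and 3.42 CPM in weak CKO and 2.49, 2.18 and 2.57 CPM in strong CKO. No CKO library reached the lowest wild type library, and the log2 changes were −1.22 (adjusted p = 0.0038, edgeR) and −1.77 (adjusted p = 0.000323). Angpt1, the ligand of Tek, fell by 0.54 and 1.07 (adjusted p = 0.0313 and 0.000727, edgeR). Angpt2 and Efnb2, a second Tek ligand and the ephrin of lymphatic valves, passed in strong CKO at −0.69 and −0.33 (adjusted p = 0.0153 and 0.0289, edgeR), and in weak CKO turned from −0.43 and −0.21 to 0.01 and 0.22 when scaled to endothelial genes, as Efnb2 did in strong CKO (0.33). Over the 19 alternatives that kept library scaling, the weak CKO calls of Acvrl1 and Ramp2 held in 11 each, of Angpt1 in 12 and of Emilin1 in 14. In strong CKO those of Emilin1 held in 12, of Efnb2 in 14 and of Angpt2 in 17.

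**Figure D4:**
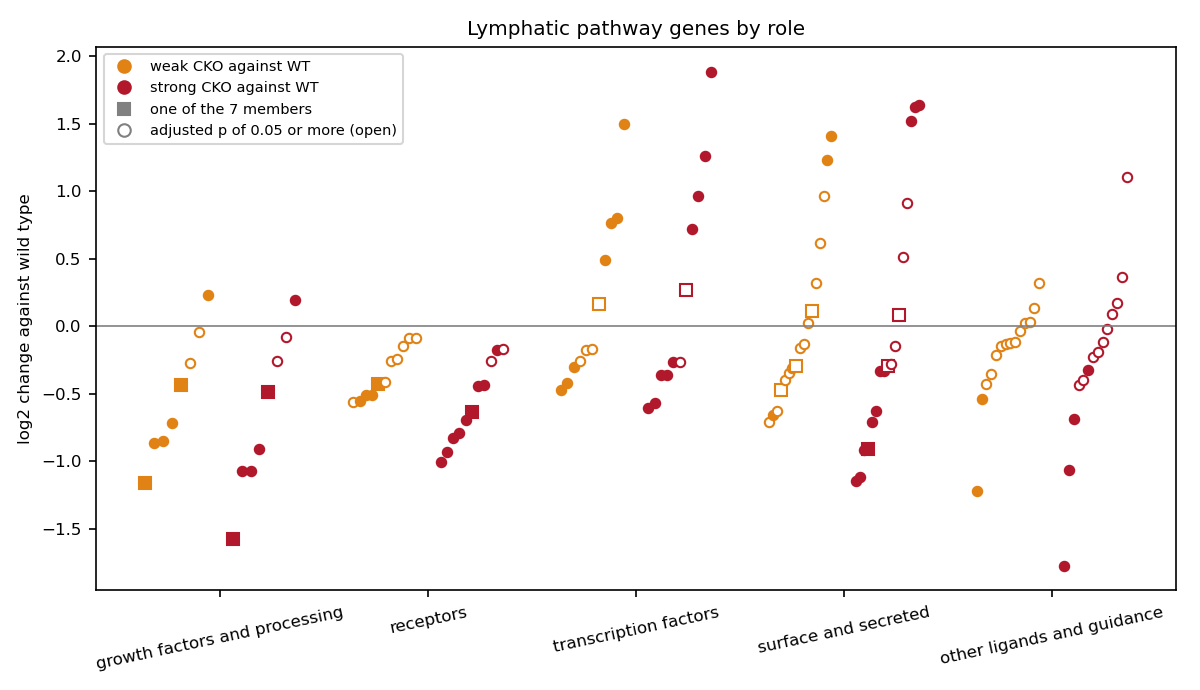
Log2 change against wild type (vertical axis, edgeR on library scaling) of the 7 genes (squares) and 54 further pathway genes (circles) by role (horizontal axis), ordered by size within each group and filled where the adjusted p was under 0.05. Ccbe1 is the lowest growth factor or processing gene in both comparisons, receptors lie below 0 and transcription factors on both sides of it (scaling to endothelial genes moves all genes upward by a like amount).

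Markers of other cells that express a member were read beside these values. Lyve1 is also a macrophage gene, and of 11 tested macrophage markers 6 rose and 0 fell in weak CKO and 7 rose and 0 fell in strong CKO (8 and 0 at an unadjusted p under 0.05 in both, and 8 and 7 rises and 0 falls by DESeq2), among them C1qc (1.11 and 1.26) and C1qb (1.17 and 1.47). The summed macrophage level overlapped, at 804 to 1579 CPM in wild type, 1087 to 1588 CPM in weak CKO and 889 to 1269 CPM in strong CKO. Most of that sum came from Lyz2 (means of 920, 992 and 698 CPM), so it says little of the other markers. Mrc1, a marker of Lyve1-bearing macrophages, did not pass by edgeR in weak CKO (0.49, adjusted p = 0.0548, with all weak CKO libraries above wild type) or in strong CKO (0.28). Cd163 (0.43 and −0.06), Lyz2 (0.11 and −0.40) and Folr2 (0.63 and 1.44, at no more than 0.753 CPM) passed in neither comparison. All tested macrophage markers thus had positive changes in weak CKO (median 0.70), as had all but Lyz2 and Cd163 in strong CKO (median 0.72). The changes differed in size, and the part of macrophages in the Lyve1 values was not tested. For Mmrn1, 0 of 9 platelet markers passed in weak CKO (1 higher at an unadjusted p under 0.05 and 1 by DESeq2) and 1 rose and 1 fell in strong CKO (Pf4, 0.85, adjusted p = 0.00787, edgeR, and Clec1b, −1.44, adjusted p = 0.0232). The platelet median in strong CKO was 0.76, with 5 higher and 1 lower at an unadjusted p under 0.05, 2 higher and 1 lower by DESeq2 and up to 3 higher with a library left out. Platelet markers had summed levels of 115 to 144, 93.9 to 128 and 125 to 148 CPM in wild type, weak and strong CKO. Most of these sums came from Vwf, a gene of endothelium too (means of 80.2, 72.9 and 79.6 CPM).

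Prox1 is expressed outside lymphatic vessels as well, in heart muscle, hepatocytes and neuroendocrine cells. Of 8 pulmonary neuroendocrine markers 7 rose and 0 fell in both comparisons (edgeR; 0 fell at an unadjusted p under 0.05 or by DESeq2, which called 5 and 7 up), among them Uchl1 (0.88 and 1.16). The weak CKO count was 3 to 4 when WT_268_1, WT_549_2 or any 1 of the weak CKO libraries was left out. Their summed level was 9.95 to 11.9 CPM in wild type, 17.8 to 22.7 CPM in weak CKO and 22.0 to 26.5 CPM in strong CKO. Of those that rose, Chga, Chgb, Resp18 and Scg5 had means under 1 CPM in every group. With a filter of at least 1 CPM in 3 libraries, 3 neuroendocrine markers were called up in each comparison. Of 7 tested cardiac and striated muscle markers 2 rose and 1 fell in weak CKO and 5 rose and 1 fell in strong CKO, and over the libraries left out these rises ran from 0 to 3 and from 3 to 6, with summed levels of 169 to 243, 255 to 337 and 254 to 438 CPM. Hepatocyte markers summed to 0.678 to 2.83 CPM over all libraries. Cldn11 is a glial gene too, and of 7 tested nerve and Schwann cell markers 2 rose in weak CKO and 3 in strong CKO. Summed erythroid markers were at 3951 to 7402 CPM in wild type, 3778 to 4395 CPM in weak CKO and 6765 to 12696 CPM in strong CKO, and the counts of members called were 3, 4 and 0 with the erythroid genes left out, as with them. None of the listed markers was at 0 in all libraries. The part of these cells in the Prox1, Lyve1 and Mmrn1 values was not tested.

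Because Dnmt1 copies methylation at CG pairs, the promoter windows of the members were read for CG content. RefSeq (GRCm38.p6) windows matched 5 of the 7 genes, with none for Ccbe1 and Lyve1, and the 250 bases before the start site were used. These 3 are shown as examples poor and rich in CG, for 1 member that fell (Vegfc) and 2 that did not pass (Prox1 and Mmrn1), with each CG in capitals.
Vegfc: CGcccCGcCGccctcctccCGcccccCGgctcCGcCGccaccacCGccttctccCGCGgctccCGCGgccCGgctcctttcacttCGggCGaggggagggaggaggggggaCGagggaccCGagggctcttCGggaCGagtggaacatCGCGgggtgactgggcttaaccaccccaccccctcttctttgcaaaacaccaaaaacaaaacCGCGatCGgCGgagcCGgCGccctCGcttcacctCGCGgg
Prox1: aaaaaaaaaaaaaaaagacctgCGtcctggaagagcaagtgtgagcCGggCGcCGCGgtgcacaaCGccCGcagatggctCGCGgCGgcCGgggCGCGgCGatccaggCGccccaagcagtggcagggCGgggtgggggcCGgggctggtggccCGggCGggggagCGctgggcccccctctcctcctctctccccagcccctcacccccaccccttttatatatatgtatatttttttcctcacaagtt
Mmrn1: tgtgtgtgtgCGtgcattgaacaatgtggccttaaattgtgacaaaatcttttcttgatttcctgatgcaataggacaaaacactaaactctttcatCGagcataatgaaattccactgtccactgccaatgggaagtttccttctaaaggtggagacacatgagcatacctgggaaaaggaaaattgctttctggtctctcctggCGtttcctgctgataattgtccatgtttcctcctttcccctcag
The Vegfc window (chr8:54077282-54077531, plus strand) held 30 CG pairs and 71.6% G or C, and 94.1% of 32841 promoters of the same length had fewer CG. Prox1 has 2 RefSeq windows, and the one shown (chr1:190170828-190171077, minus strand) held 20 CG pairs, more than 82.0% of promoters, while the other held 11, more than 64.4%, and the Mmrn1 window (chr6:60944067-60944316, plus strand) held 3, more than 29.0%. The Mmrn1 window lies inside the GENCODE span of the gene and overlaps no exon. Windows of Reln and Flt4, not shown, held 37 and 16 CG pairs, that of Reln the most among the members and that of Flt4 wholly within annotated Flt4 exon, against a median of 6 over all promoters (25th percentile 2, 75th percentile 16). The letters GGAA on either strand, the core of ETS factor sites, occurred 9 times in the Mmrn1 window, 2 and 5 times in the shown and the other Prox1 window, 2 times each in those of Reln and Flt4 and 1 time in that of Vegfc, and 93.5% of all promoters hold at least 1. The letters AACAAT on either strand, a core of SOX factor sites, occurred 1 time in the Mmrn1 window and are held by 9.43% of promoters. Of the members that fell, Vegfc and Flt4 alone had a window, and Ccbe1, with the largest change, had none. CG counts above the median occurred in these 2 and in Prox1 and Reln, which did not pass. A link between CG content and the changes was not tested, and methylation itself was not measured in these libraries.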

How the data were processed

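Total RNA of 9 whole lungs was sequenced (75 nt single reads, 50 M intended per library), per the labels' protocols. The authors deposited 1 table with whole-number read counts per gene, not normalised, and RPKM values per the file headers. STAR and GRCm38.p6, with edgeR 3.28.1, FastQC 0.11.8, Trimmomatic 0.36 and cutadapt 2.5, are named in the submitters' processing notes. The sources used here give no counting tool, annotation release or strand setting. The deposited gene length equalled the exons summed over all transcripts (within 2%) for 96.7% of genes, so levels per length use merged exons of GENCODE M21 instead. All per-sample columns mapped to a library (0 unmapped).

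Deposited counts were tested in R 4.3.3 with edgeR 4.0.16: filterByExpr by group, TMM factors (0.938 to 1.04), 1 mean per group, all 9 libraries in 1 robust quasi-likelihood fit and two-sided tests, with Benjamini-Hochberg adjustment over 19374 genes and a threshold of 0.05. The common biological coefficient of variation was 0.15. Log2 CPM used a prior count of 2. The SE of a log2 change was derived from that change and its F statistic. Counting error is the square root of a count over that count and leaves out biological spread. The method was tested on simulated data.

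All 7 genes are named in every comparison. Also named are the 3 genes of most like profile to each (mean log2 CPM of at least 1), up to 4 called genes per pathway list with the smallest adjusted p in strong CKO, and up to 2 called markers per cell type; Kdr, Nrp2, Nr2f2, Sox18, Mrc1, Sftpc and Nkx2-1 were added after their values were seen. Some genes that this rule selects are not reported here. The 7 genes, the lists and the tests were chosen with earlier results of these data known. Alternatives were other scaling factors, filters, DESeq2 1.42.0, limma 3.58.1 on log2(RPKM + 1) and log2(RPKM + 0.1), erythroid genes left out, scaling to 14 pan-endothelial genes, each library left out, and the library number as a block.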

Additional observations from a re-analysis of the deposited data

How the results depend on the processing

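Over 20 alternatives the count of members called in weak CKO ran from 1 to 4 (3 as reported) and became 1 without MUT_W_265_2 or MUT_W_268_3; over the 9 libraries left out it ran from 1 to 3. In strong CKO it was 3 to 4 without a library (4 as reported), and 0 in strong against weak CKO throughout. Ccbe1 kept its call in both comparisons with wild type in all 20. Over all genes, 2803 were called in weak CKO and 4969 in strong CKO, with 1310 to 2828 and 3101 to 4983 without a library, and 8938 and 13761 when scaled to endothelial genes.

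Direction turned in members near 0 or under endothelial scaling, and the cause was not tested. Scaled to endothelial genes, weak CKO values were 0.0061 for Vegfc and 0.13 for Mmrn1. In strong CKO they were 0.0076 for Flt4, 0.17 for Vegfc and 0.33 for Mmrn1. Strong against weak CKO gave 0.013 for Flt4, 0.16 for Vegfc, 0.17 for Reln and 0.20 for Mmrn1. Over the libraries left out, Prox1 in weak CKO ran from −0.014 (without WT_549_2) to 0.38, Reln in weak CKO from −0.19 (without MUT_W_265_2) to 0.34, also −0.093 without WT_549_2, and Reln in strong CKO from −0.12 (without WT_549_2) to 0.29. In strong against weak CKO, Reln ran from −0.25 to 0.28 and Mmrn1 from −0.24 to 0.24, both highest without MUT_W_265_2. That last comparison also gave Mmrn1 0.028 without MUT_W_268_3, 0.041 without MUT_S_265_5, 0.032 without MUT_S_860_3, 0.0017 with upper quartile factors, 0.023 on log2(RPKM + 1) and 0.051 on log2(RPKM + 0.1), and Reln 0.051 without MUT_S_265_5 and 0.0082 on log2(RPKM + 0.1).

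With the library number as a replicate block, 4 members were called in weak CKO, 5 in strong CKO and 0 between CKO groups, and over all genes 3926, 4450 and 3 were called against 2803, 4969 and 1 without it. Lyve1 in weak CKO (−0.49, adjusted p = 0.0115, edgeR) and Mmrn1 in strong CKO (−0.49, adjusted p = 0.0302) passed with the block; Reln turned to −0.17 in strong CKO and Prox1 to −0.025 in strong against weak CKO. The labels do not say what the number marks, and deviations of same-numbered libraries from their group means correlated between −0.087 and 0.35, against −0.38 to 0.19 for libraries of different numbers. Not every same-numbered pair exceeded 0.1, and the samples were not treated as paired.

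Of the members, Prox1 had the lowest count, 204 in WT_549_2, with a counting error of 7.0%. Its coefficient of variation in wild type was larger, at 27.3%. Groups of 3 libraries leave intervals that span both directions for Prox1, Reln and Mmrn1.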

Other observations

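Some genes of lymphatic valves that are not among the 7 changed in different directions. Foxc2 (1.5 in weak and 1.89 in strong CKO) and Foxc1 (0.80 and 0.96) rose on the log2 scale, as did the junction gene Cldn11 (1.23 and 1.64), while Gata2 fell by 0.47 and 0.61 (0.05 in strong CKO when scaled to endothelial genes). Efnb2 was at −0.21 (adjusted p = 0.165, edgeR) and fell by 0.33 in strong CKO (adjusted p = 0.0289), and turned to 0.22 and 0.33 on that scaling. Foxc1, Foxc2 and Cldn11 stand at a mean of at most 3.92 CPM in strong CKO and are also expressed by mesenchymal or glial cells, of which whole lung RNA holds a mixture. These 5 genes were grouped after their values were seen. Nfatc1 (−0.17 and −0.27) and Klf2 (−0.26 and −0.26), listed with the factors of specification and valves, were left out of this group.

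The deposited lengths change how abundant a member looks. The length used for RPKM was 2.05 times the merged exons for Reln, 1.88 for Mmrn1 and 1.71 for Prox1, against 1.11 for Ccbe1 and 1.2 for Flt4, so deposited RPKM understates Prox1 relative to Flt4 and Ccbe1. Comparisons of 1 gene between groups do not use the length.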
